A study of Mus musculus with 6 samples.

Results

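The 10 genes described here encode transcription factors that make and maintain fat cells: Cebpb, Cebpd, Pparg, Rxra, Cebpa, Klf15, Ebf1, Zfp423, Srebf1 and Mlxipl. They were taken by name, and every probe set of the array that carries 1 of these symbols and no other was used. That gave 18 of the array's 45037 probe sets and 10 of the 18193 genes that have a probe set of their own. In the fat pads of Cnot3-deleted mice, Rxra, Klf15, Ebf1 and Zfp423 fell to between 44.9% and 62.7% of the wild-type signal and Cebpb rose to 137% of it. Pparg, Cebpa, Cebpd, Srebf1 and Mlxipl did not pass the test.

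The arrays came from whole epididymal white adipose tissue of 8-week-old C57BL/6 mice, with 1 Affymetrix array for each mouse. In 3 mice, called CNOT3KO, Cnot3 had been deleted by Cre under control of the adiponectin promoter, and the other 3 mice were wild type (WT). Cnot3 encodes a subunit of CCR4-NOT, which trims poly(A) tails and so sets how long mRNAs last. The adiponectin promoter is active in adipocytes, so the vessel, immune and precursor cells of the same pad keep the gene, and the arrays read all of them together.

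Adipocyte differentiation runs as a relay of transcription factors. C/EBPbeta and C/EBPdelta come first and switch on PPARG and C/EBPalpha, which then maintain each other and bind together at most genes of the mature fat cell. PPARG binds DNA only as a pair with a retinoid X receptor, mainly RXRA in fat. EBF1 and ZFP423 act in precursors and KLF15 in the later phase, while SREBP-1c (from Srebf1) and ChREBP (from Mlxipl) drive fatty acid synthesis in response to insulin and to sugar.

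Cnot3 itself fell on its brighter probe set. That probe set read 305, 293 and 305 in the WT mice and 194, 229 and 179 in the CNOT3KO mice. The log2 difference was -0.54 (SE 0.14, limma adjusted p = 0.0131). The dimmer Cnot3 probe set read 256, 314 and 220 in WT and 239, 243 and 200 in CNOT3KO, with overlapping groups. It differed by -0.19 (SE 0.16) and did not pass (limma adjusted p = 0.412 over 22861 probe sets). The place of the Cnot3 probes relative to the deleted part was not analysed here. The fall of the brighter probe set is therefore a check of the labels and not of the deletion. Log2 differences are CNOT3KO minus WT on the scale of log2(signal + 22.5), which understates changes of dim genes. Adjusted p-values come from a limma fit over 12769 genes. With 3 mice a group, they weigh each difference against the spread between these mice as limma estimates it. Array medians lay between 82.1 and 92.9, and precision is limited by how many arrays there are.

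The cell types of the pad moved as well, by marker lists. Over all 12769 tested genes 23.2% were called higher and 16.9% lower. Of 9 tested adipocyte markers 0 rose by limma at an adjusted or an unadjusted p under 0.05 and 4 fell (Acvr1c, Lep, Cidec and Plin4), with a summed signal of 150058 to 189229 in WT and 130591 to 157117 in CNOT3KO. Of 23 macrophage markers 21 rose and 1 fell (Mertk), with sums of 45385 to 55762 and 106236 to 147555. Of 16 endothelial markers 15 fell and 0 rose at an adjusted or an unadjusted p under 0.05, with sums of 26852 to 27410 and 9775 to 11308. Of 17 progenitor markers 5 rose (Lum, Col1a1, Pdgfra, Fn1 and Col3a1) and 2 fell (Pi16 and F3), with sums of 76906 to 109630 and 100454 to 114851. Of 10 markers of smooth muscle and pericytes 7 fell and 2 rose (Cspg4 and Des), with sums of 16464 to 23403 and 10473 to 12619. Mesothelial markers had 4 falls (Msln, Upk3b, Krt18 and Lrrn4) and 0 rises by either p among 10, with sums of 5493 to 6812 and 3523 to 4942. The 8 T, NK and B cell markers had 2 rises (Il7r and Klrd1) and 2 falls (Ms4a1 and Cd79b), with sums of 981 to 1505 and 1865 to 2657. The 6 granulocyte and mast cell markers had 3 rises (Cpa3, Mcpt4 and Cma1) and 1 fall (Kit), with sums of 1132 to 1256 and 1243 to 2024. The calls of Mertk, Pdgfra, Fn1, Pi16, F3, Cspg4, Upk3b, Ms4a1, Cd79b, Mcpt4 and Kit did not all hold with 1 mouse left out. The sums of the 2 groups were apart for macrophage, endothelial, smooth muscle and pericyte, mesothelial and T, NK and B cell markers, and overlapped for adipocyte, progenitor and granulocyte and mast cell markers. The rise of the T, NK and B cell sum lay largely in Il7r, at 183 ± 36.9 in WT and 1361 ± 306 in CNOT3KO. Cd3d, Cd3g, Cd8a and Nkg7 did not pass. Mcpt4 had a WT mean of 17.6, under the 51.6 that a gene's mean had to reach, and was tested through its CNOT3KO signal. Of all these markers 0 were listed at 0. In bulk tissue, fewer cells of a type and less RNA per cell cannot be told apart.

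All 10 factors were bright enough to be tested. By limma 1 rose and 4 fell, while 5 did not pass. Over all 12769 tested genes 40.1% were called, 23.2% higher and 16.9% lower, so 5 calls in 10 is near the background, while the 4 falls in 10 stand beside the 16.9%. With each array centred on its median, the split over all genes turned from 2959 higher and 2156 lower to 2318 higher and 2800 lower. The median log2 difference of the factors was -0.25, with a range of -1.13 to 0.46, against 0.02 for all tested genes, whose middle values ran from -0.30 to 0.39 between the quartiles. The 2 groups did not overlap for 5 of the 10 factors, 1 of them higher and 4 lower in CNOT3KO, against 51.7% of all tested genes, 29.0% higher and 22.7% lower.

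**Figure D1:**
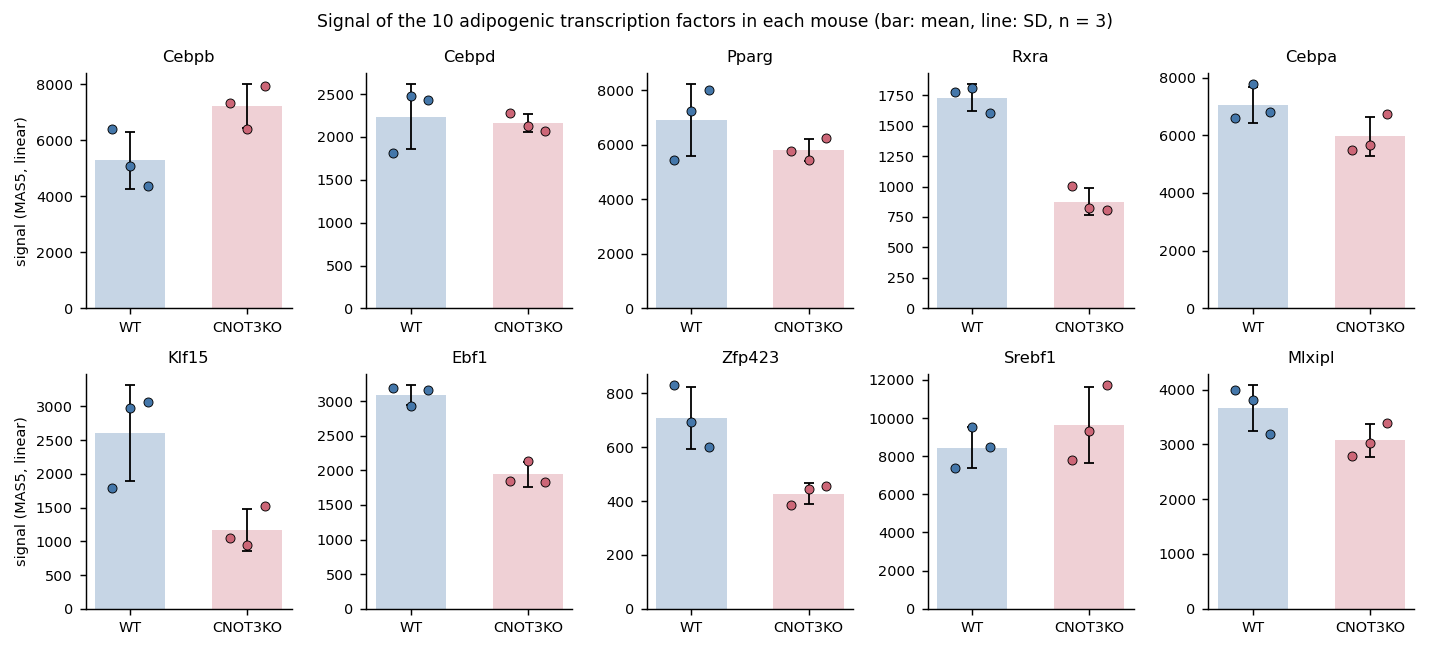
MAS5 signal (linear) of the probe set that stands for each of the 10 factors, with 1 point a mouse, bars for the mean and lines for the SD of 3 mice, WT in blue and CNOT3KO in red. The points of Rxra, Klf15, Ebf1 and Zfp423 lie lower in all CNOT3KO mice than in any WT mouse, those of Cebpb lie higher, and the other 5 panels overlap.

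In the first wave of the relay Cebpb rose and Cebpd did not pass the test. Cebpb, the leucine zipper factor that starts the programme and also serves macrophages, read 6396, 5085 and 4374 in WT and 7327, 6399 and 7942 in CNOT3KO on probe set 1418901_at. All CNOT3KO mice were above all WT mice, but CNOT3KO mouse 2 and WT mouse 1 almost touched. The means were 5285 ± 1026 and 7223 ± 777 (SD, n = 3), which differ by 0.46 on the log2 scale (SE 0.15, 95% interval 0.13 to 0.79, limma adjusted p = 0.0315). Its other probe set, 1427844_a_at, read 1513, 1244 and 1065 in WT and 2305, 1542 and 2609 in CNOT3KO, with a log2 difference of 0.73 (SE 0.20, adjusted p = 0.0172 over 22861 probe sets). The rise of the brighter probe set did not hold without WT mouse 2 (log2 0.44), WT mouse 3 (0.33), CNOT3KO mouse 1 (0.45) or CNOT3KO mouse 3 (0.39), nor with median centring (0.36). Of the 23 macrophage markers 21 rose beside it. Their part in this rise was not tested.

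Cebpd, its partner in the first wave, read 1808, 2478 and 2429 in WT and 2275, 2133 and 2069 in CNOT3KO on probe set 1423233_at. All CNOT3KO values lay inside the WT range. The log2 difference was -0.04 (SE 0.13, 95% interval -0.34 to 0.26, limma adjusted p = 0.842), so changes within that interval could not be seen with these mice. The dimmer probe set 1456605_at differed by -0.23 (SE 0.19, adjusted p = 0.394). Within arrays, the log2 ratio of Cebpb to Cebpd was 0.50 higher in CNOT3KO (SE 0.31), with overlapping groups, so a different response of these 2 genes was not shown.

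The rest of the C/EBP network went down more than up. Of 8 tested genes for other C/EBP proteins, CHOP and the Tribbles regulators of C/EBP turnover, 6 fell and 0 rose by limma, at an adjusted or an unadjusted p under 0.05, with a median log2 difference of -0.51. Cebpg, a C/EBP family member that pairs with other leucine zipper proteins, read 2449, 2661 and 2682 in WT and 1547, 1585 and 1554 in CNOT3KO. Its CNOT3KO mice lay close together and well under every WT mouse, at 2597 ± 129 and 1562 ± 20.7 (log2 -0.72, SE 0.09, adjusted p = 0.000367). Trib2, which promotes the breakdown of C/EBPalpha, fell by 1.23 on the log2 scale (adjusted p = 0.000193). Atf5, a stress-response factor that works with C/EBPbeta, fell by 0.97 (adjusted p = 0.000221), and Ddit3, the gene of CHOP, fell by 0.52 (adjusted p = 0.00935), although not as the mean of its probe sets (-0.33). Atf4 fell by 0.47 (adjusted p = 0.024) and Cop1 by 0.34 (adjusted p = 0.0325). Trib1 (-0.49, adjusted p = 0.133) and Trib3 (0.11, adjusted p = 0.68) did not pass.

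Genes of the acute phase response and of cytokines, many of which C/EBPbeta and C/EBPdelta bind, were called in the direction of a rise. Of 13 tested, 6 rose by limma, with 9 at an unadjusted p under 0.05, and 0 fell by either p. The 6 are 46.2%, against 23.2% of all tested genes called higher. The list's median log2 difference was 0.88. Il1rn, the interleukin 1 receptor antagonist, read 34.4, 42.2 and 46.1 in WT and 513, 524 and 383 in CNOT3KO. Its WT signals were under the 51.6 that a gene's mean had to reach, so it was tested through its CNOT3KO signal, and its log2 difference varied with the processing (2.11 to 3.50, called in all 21 alternatives). Arg1, also among the 6, had a WT mean of 22.9 and a CNOT3KO mean of 118, so Arg1 too was tested through its CNOT3KO signal. Saa3, a serum amyloid A, rose 6.54-fold, Lcn2, lipocalin 2, 6.25-fold and Ccl2, a chemokine for monocytes, 3.84-fold. With array weights, which gave CNOT3KO mouse 1 a weight of 4.47 against 0.49 to 1.53 for the other mice, 10 rose and 1 fell. Macrophages also express many of these genes, and the 23 macrophage markers rose in 21 cases beside them. Their part was not tested.

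Pparg and its DNA-binding partner Rxra stood at different levels of evidence. Pparg, the nuclear receptor at the centre of the relay, read 5435, 7256 and 8002 in WT and 5762, 5452 and 6238 in CNOT3KO on its 1 probe set, 1420715_a_at. WT mouse 1 lay below every CNOT3KO mouse, and the other WT mice lay above them all. The log2 difference was -0.23 (SE 0.14, 95% interval -0.55 to 0.09, limma adjusted p = 0.237). Without WT mouse 1 the difference was -0.39 and passed (adjusted p = 0.0244). The probe set was not resolved into the Pparg isoforms that start from separate promoters.

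RefSeq's promoter table (build GRCm38.p6) matched 9 of the 10 factors, with 17 start sites in all, and was searched from 250 bases before to 50 after each start, on both strands. The search was for TTGCNNAA (a C/EBP type site), CACGTG (the E-box read by ChREBP-MLX, by clock factors and by SREBP-1), AGGTCA repeated after 1 base of any kind (a PPAR-RXR repeat), TCACCCCAC (a sterol element) and TCCC followed after 2 bases of any kind by GGGA (an EBF site). These occurred in 10.8%, 7.15%, 0.0396%, 0.551% and 0.904% of 32851 mouse promoters of that length. Among the factors only Pparg, Klf15, Zfp423 and Mlxipl had a match, and only to the C/EBP type or the E-box. A match is a string of letters and not a measured binding site. Pparg is shown because it is the textbook target of the C/EBP proteins whose signals are given above. Of its 3 start sites only the most downstream held a match to TTGCNNAA, and that site was picked for its matches. The 250 bases before the most downstream of its 3 start sites, at chr6:115421816-115422065 on the plus strand of GRCm38.p6, are printed 5′ to 3′ with the matches to TTGCNNAA in capitals, the second of them on the other strand.
Pparg: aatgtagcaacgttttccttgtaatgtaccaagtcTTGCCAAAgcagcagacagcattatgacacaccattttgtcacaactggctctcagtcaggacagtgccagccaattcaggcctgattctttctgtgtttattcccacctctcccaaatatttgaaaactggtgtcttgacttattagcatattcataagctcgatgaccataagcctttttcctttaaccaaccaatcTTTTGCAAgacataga

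Rxra fell to 50.6% of WT. Its brighter probe set, 1454773_at, read 1777, 1806 and 1605 in WT and 1002, 821 and 805 in CNOT3KO. The mice of each group lay close together and the groups were far apart. The means were 1729 ± 108 and 876 ± 109 (SD, n = 3), a log2 difference of -0.97 (SE 0.12, 95% interval -1.23 to -0.70, limma adjusted p = 0.000258), rank 1361 by size of change among the 12769 tested genes. Probe set 1425762_a_at read 456, 472 and 478 in WT and 376, 419 and 281 in CNOT3KO, again with groups apart but with a log2 difference of -0.38 (SE 0.16) that did not pass (adjusted p = 0.0817). A probe set near the floor of the arrays, 1430497_at, was not tested. The log2 ratio of the 2 tested probe sets was 0.59 lower in CNOT3KO than in WT with no overlap. Since 0.1 is the smallest exact permutation p that 3 mice against 3 allow, a difference in the size of the fall between them was not established. As the mean of all its probe sets Rxra fell by 0.43 on the log2 scale and was still called.

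The other retinoid X receptors did not follow. Rxrb differed by 0.05 (adjusted p = 0.812) and Rxrg by 0.04 (adjusted p = 0.864). Of the 27 tested partners and co-regulators of PPARG and RXR, 11 fell and 1 rose, with a median log2 difference of -0.26. That is 44.4% called, near the 40.1% of all tested genes (23.2% higher, 16.9% lower). Ppargc1a, the coactivator PGC-1alpha, read 260, 181 and 309 in WT and 119, 93.3 and 91.7 in CNOT3KO, with a log2 difference of -1.11 (SE 0.21, adjusted p = 0.00251). All CNOT3KO values were below the lowest WT value. Nrip1, the corepressor RIP140, fell from 6950 ± 533 to 4084 ± 496 (log2 -0.77, adjusted p = 0.000807). Kmt2d, a histone methyltransferase that primes enhancers for PPARG, fell by 1.10 (adjusted p = 0.000121), but by 0.33 and without passing as the mean of its probe sets. Prdm16, the coregulator of the thermogenic programme, fell by 0.76 (adjusted p = 0.0162), and did not pass without WT mouse 3 (-0.66) or as the mean of its probe sets (-0.20). The 1 rise was Cdk5, a kinase that phosphorylates PPARG, at 0.37 (adjusted p = 0.0324), which was lost without any 1 mouse other than CNOT3KO mouse 2 or WT mouse 3 and was -0.09 as the mean of its probe sets.

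**Figure D2:**
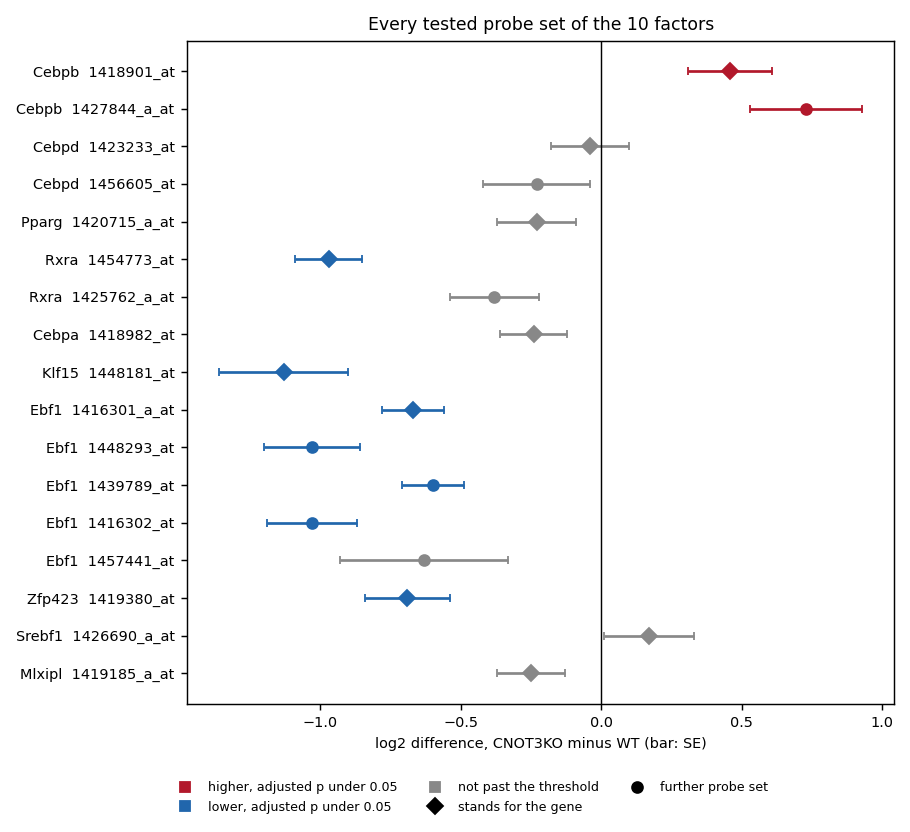
Log2 difference (CNOT3KO minus WT, horizontal axis) of each of the 17 tested probe sets of the 10 factors, with lines for the SE. Diamonds stand for the gene, circles are further probe sets, and colour gives the call at an adjusted p under 0.05. Both Cebpb probe sets lie above 0 and are called, 1 of the 2 Rxra probe sets is called, and 4 of the 5 Ebf1 probe sets are called lower.

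Taken singly, 17 of the 18 probe sets of the factors were bright enough to test, and 2 were higher, 7 lower and 8 not past the threshold. Among all 22861 tested probe sets 18.6% were higher and 17.2% lower, 35.8% in all.

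Cebpa, the factor that keeps PPARG on in the mature cell, read 6586, 7760 and 6795 in WT and 5496, 5660 and 6721 in CNOT3KO on probe set 1418982_at. CNOT3KO mouse 3 lay between the WT mice and the other 2 lay below them. The log2 difference was -0.24 (SE 0.11, 95% interval -0.50 to 0.01, limma adjusted p = 0.122). It passed without CNOT3KO mouse 3 (-0.33, adjusted p = 0.0448) and with array weights (-0.37, adjusted p = 0.00739). CNOT3KO mouse 3 was the highest of its group for 7 of the 10 factors and the lowest for the other 3.

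Among 36 tested adipocyte genes driven by PPARG or C/EBPalpha, 8 rose and 13 fell, with a median log2 difference of -0.12, so the targets moved in both directions. The share called was 58.3%, against 40.1% of all tested genes. Nnat, the gene of neuronatin, fell by 4.42 on the log2 scale (adjusted p = 3.3e-05), Rbp7, a retinol-binding protein, by 1.68 (adjusted p = 0.000248) and Pck1, which makes glycerol backbone for triglyceride, by 1.53 (adjusted p = 2.1e-05). Cidea, a lipid droplet protein typical of brown fat, rose by 2.26 (adjusted p = 0.00515). Fabp4, the fatty acid carrier of adipocytes, read 37672 ± 3195 and 34375 ± 2718 and did not pass (adjusted p = 0.379).

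Klf15 had the largest change of the 10 factors, at 44.9% of WT. This zinc finger factor drives the insulin-responsive glucose transporter and amino acid breakdown in fat, and acts with C/EBPalpha late in differentiation. It read 1786, 2976 and 3063 in WT and 1044, 947 and 1525 in CNOT3KO on probe set 1448181_at. WT mouse 1 was well below its group and CNOT3KO mouse 3 above its own, and the groups still did not overlap. The means were 2608 ± 714 and 1172 ± 310 (SD, n = 3), a log2 difference of -1.13 (SE 0.23, 95% interval -1.64 to -0.62, limma adjusted p = 0.00382). Without 1 mouse at a time it lay between -1.38 and -0.99 and remained called each time.

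The promoter of Klf15 is shown because its E-boxes can be set beside the signals of the factors that read such sites. Its window held 3 matches to CACGTG, and the third spans the start site. The 250 bases before that start, at chr6:90462326-90462575 on the plus strand of GRCm38.p6, hold the first 2, given in capitals.
Klf15: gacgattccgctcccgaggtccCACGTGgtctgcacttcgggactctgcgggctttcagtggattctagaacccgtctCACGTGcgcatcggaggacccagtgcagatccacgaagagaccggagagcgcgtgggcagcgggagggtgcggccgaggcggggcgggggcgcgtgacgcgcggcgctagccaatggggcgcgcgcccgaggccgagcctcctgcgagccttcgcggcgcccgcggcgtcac

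Of the E-box readers, Arntl (BMAL1, a core clock factor that also acts in adipogenesis) rose by 1.82 (3.54-fold, adjusted p = 9.5e-05) on its brightest probe set and not on another of its probe sets. Mlxipl, Mlx and Srebf1 did not pass. Other readers of such sites were not examined as a set, and a part of any of them in the fall of Klf15 was not tested.

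Of 8 tested KLF15 targets 3 fell and 1 rose, with a median log2 difference of -0.16. The share called was near the 40.1% of all tested genes (23.2% higher, 16.9% lower), and the list is short. Gpt2, the mitochondrial alanine transaminase, read 7989, 10223 and 8114 in WT and 4143, 4465 and 4023 in CNOT3KO, a log2 difference of -1.05 (SE 0.12, adjusted p = 0.000161). Each CNOT3KO mouse was below every WT mouse. Prodh, the proline oxidase, fell by 0.82 (adjusted p = 0.00515), and Dbt, a subunit of the enzyme that breaks down branched-chain amino acids, by 0.40 (adjusted p = 0.0106). The rise was Gpt, the cytosolic transaminase, at 0.38 (adjusted p = 0.0405), which was -0.57 on its other probe set and did not pass without WT mouse 1, WT mouse 2, CNOT3KO mouse 1 or CNOT3KO mouse 3. Slc2a4, the glucose transporter GLUT4, read 5452, 5147 and 3849 in WT and 3204, 3245 and 4806 in CNOT3KO, overlapped and did not pass (log2 -0.37, adjusted p = 0.136).

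Ebf1, the early B cell factor that marks adipocyte precursors and mature fat cells and is also needed for B cells, fell to 62.7% of WT. Probe set 1416301_a_at read 3195, 2931 and 3157 in WT and 1853, 2141 and 1830 in CNOT3KO. The WT mice sat within a narrow band that no CNOT3KO mouse reached. The means were 3095 ± 143 and 1941 ± 174 (SD, n = 3), a log2 difference of -0.67 (SE 0.10, 95% interval -0.90 to -0.44, limma adjusted p = 0.00092).

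Of its 4 other probe sets, 3 further probe sets of Ebf1 also fell. Those were 1448293_at, at 2463, 3051 and 2644 in WT and 1508, 990 and 1506 in CNOT3KO (log2 -1.03, adjusted p = 0.00139), 1416302_at (-1.03, adjusted p = 0.00118) and 1439789_at (-0.60, adjusted p = 0.00293). The dim 1457441_at overlapped between groups and did not pass (-0.63, adjusted p = 0.127). CNOT3KO mouse 2 was the lowest of its group on 1448293_at and 1416302_at but the highest on 1416301_a_at. The log2 ratio of 1448293_at to 1439789_at was 0.43 lower in CNOT3KO with no overlap, while that of 1448293_at to 1416302_at differed by -0.01 and overlapped. The other ratios between Ebf1 probe sets overlapped between the groups. Which transcripts each probe set reads was not analysed here. Over all 13 ratios between probe sets of 1 factor, the groups were apart only for 1448293_at to 1439789_at of Ebf1 and for Rxra. That Ebf1 ratio had an exact permutation p of 0.1, the smallest that 3 mice against 3 allow. A difference in the size of the fall between the 2 probe sets was therefore not established.

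Other EBF genes fell as well. Ebf2, a regulator of precursors and of brown fat genes, read 1113, 1669 and 1662 in WT and 748, 833 and 479 in CNOT3KO, a log2 difference of -1.10 (SE 0.22, adjusted p = 0.0035). Ebf3 read 548, 646 and 573 in WT and 252, 353 and 266 in CNOT3KO, a difference of -0.98 (SE 0.15, adjusted p = 0.000889). The groups of both genes were apart, and both calls held without any 1 mouse. The B cell markers Ms4a1, at 178 ± 120 and 39.4 ± 6.51, and Cd79b, at 105 ± 33.6 and 41.3 ± 28.9, fell beside Ebf1 (adjusted p = 0.0166 and 0.0497), both at dim signals. Ms4a1 did not pass without WT mouse 2 and Cd79b not without WT mouse 2, WT mouse 3 or CNOT3KO mouse 3. The part of B cells in the Ebf1 signal was not tested.

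Zfp423, a zinc finger factor of committed precursors that binds EBF proteins and holds back the thermogenic programme in white fat, fell to 60.4% of WT. It read 832, 694 and 602 in WT and 385, 444 and 456 in CNOT3KO on probe set 1419380_at. The lowest WT mouse was above the highest CNOT3KO mouse. The means were 709 ± 115 and 428 ± 38.1 (SD, n = 3), a log2 difference of -0.69 (SE 0.14, 95% interval -1.01 to -0.37, limma adjusted p = 0.00431). Of 10 smooth muscle and pericyte markers 7 fell beside Ebf1 and Zfp423, and 15 of 16 endothelial markers fell, while of 17 progenitor markers 5 rose and 2 fell. Their part in either fall was not tested.

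At 1 of the 2 Zfp423 start sites the window held a match to TTGCNNAA on each side of the start. The upstream match is shown, as the only match to TTGCNNAA before a start site among the 4 factors that fell, with its neighbours in 30 bases at chr8:87959708-87959737 on the minus strand of GRCm38.p6 and the match in capitals.
Zfp423: gcctgcaaactTTGCACAAaaatccggcaa

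Set against Pparg and Cebpa on the same array, the 4 factors that fell all had lower log2 ratios in CNOT3KO, though not always apart from WT. The log2 ratio of Rxra to Pparg was 0.74 lower in CNOT3KO (SE 0.24) and that of Klf15 to Pparg 0.90 lower (SE 0.18). The ratio of Ebf1 to Pparg was 0.44 lower (SE 0.22), and that of Zfp423 to Pparg 0.46 lower (SE 0.31) with overlapping groups. Against Cebpa the changes were -0.73 (SE 0.19) for Rxra, -0.89 (SE 0.25) for Klf15, -0.43 (SE 0.18) for Ebf1 with overlap and -0.45 (SE 0.18) for Zfp423. The 9 pairs compared, with Cebpb to Cebpd among them, were picked after the values were seen and are given without a test. Of these, 6 had groups apart. The 4 factors were taken because they fell, and Pparg and Cebpa because they did not pass. That choice set the direction of these ratios, so a different response of these genes was not shown.

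**Figure D3:**
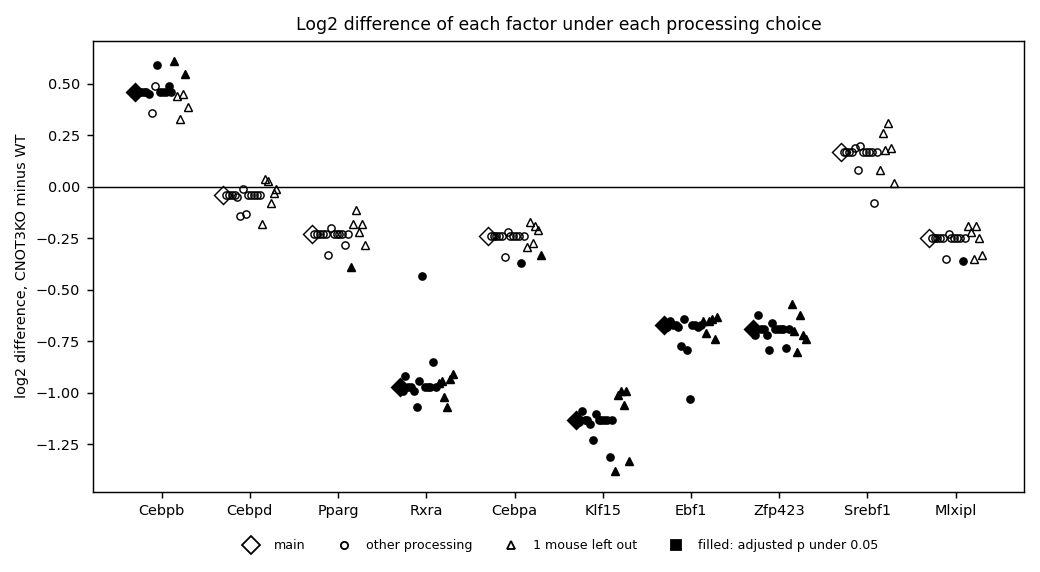
Log2 difference (CNOT3KO minus WT, vertical axis) of each of the 10 factors as reported (diamonds), under other processing (circles) and with 1 mouse left out (triangles), filled where the adjusted p was under 0.05. Rxra, Klf15, Ebf1 and Zfp423 are filled throughout, Cebpb is filled in part, and Cebpd and Srebf1 cross 0.

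Both lipogenic regulators stayed short of the threshold. Srebf1 read 7366, 9510 and 8464 in WT and 7799, 9307 and 11746 in CNOT3KO on probe set 1426690_a_at, which does not separate SREBP-1a from SREBP-1c here. CNOT3KO mouse 3 was above all others and the remaining mice were mixed. The log2 difference was 0.17 (SE 0.16, 95% interval -0.18 to 0.53, limma adjusted p = 0.411), and it turned to -0.08 with array weights.

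Mlxipl, the gene of the sugar-responsive factor ChREBP, read 4000, 3809 and 3197 in WT and 2794, 3026 and 3390 in CNOT3KO on probe set 1419185_a_at. CNOT3KO mouse 3 was above WT mouse 3, so the groups overlapped. The log2 difference was -0.25 (SE 0.12, 95% interval -0.52 to 0.02, limma adjusted p = 0.124), and it passed with array weights (-0.36, adjusted p = 0.0101). At 1 of its 2 start sites the window held CACGTG, the core that ChREBP and MLX themselves read, and is shown for that reason in 30 bases at chr5:135089780-135089809 on the plus strand of GRCm38.p6, with the E-box in capitals.
Mlxipl: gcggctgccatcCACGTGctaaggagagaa

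Among 11 tested genes for SREBP processing and the MLX family, 4 fell and 1 rose, with a median log2 difference of -0.24. Called were 45.5%, near the 40.1% of all tested genes. Insig1, which holds SREBP back in the endoplasmic reticulum and is itself an SREBP target, read 5990, 2726 and 1823 in WT and 7142, 8007 and 6527 in CNOT3KO. WT mouse 1 was close to the CNOT3KO mice and the other WT mice were far below. The log2 difference was 1.21 (SE 0.34, adjusted p = 0.0183), and it did not pass without WT mouse 2 or CNOT3KO mouse 1. Lpin1, a phosphatidate phosphatase that also restrains SREBP, fell from 15181 ± 766 to 9633 ± 505 (log2 -0.66, adjusted p = 0.000681). Insig2 fell by 0.52 (adjusted p = 0.0131), Spring1, a factor for SREBP cleavage, by 0.57 (adjusted p = 0.0158) and Mbtps1, the site 1 protease, by 0.34, the last turning to 0.18 as the mean of its probe sets. Spring1 did not pass without WT mouse 2 or CNOT3KO mouse 1, and Mbtps1 not without WT mouse 2, WT mouse 3, CNOT3KO mouse 1 or CNOT3KO mouse 2. Only 2 genes fell without WT mouse 2, without CNOT3KO mouse 1 or with probe sets averaged. Mlx (0.42, adjusted p = 0.208) and Srebf2 (0.05, adjusted p = 0.81) did not pass.

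Some of the lipogenic genes that SREBP-1c and ChREBP drive rose. Of 27 tested, 9 rose by limma (33.3%, against 23.2% of all tested genes called higher). By limma 0 fell, against 16.9% of all tested genes called lower, with 1 fall at an unadjusted p under 0.05. The median log2 difference was 0.28. Mid1ip1, which helps acetyl-CoA carboxylase to polymerise, read 2069, 1507 and 1101 in WT and 2737, 2708 and 3631 in CNOT3KO, a log2 difference of 0.98 (SE 0.21, adjusted p = 0.00512). The groups were apart, with WT mouse 1 nearest to the CNOT3KO mice. Acacb, the carboxylase that regulates fat oxidation, rose by 0.78 (adjusted p = 0.00642), but by 0.21 without passing as the mean of its probe sets, and Rgs16, a ChREBP-responsive gene, rose by 0.96 (adjusted p = 0.0281), but did not pass without WT mouse 1 (0.87), WT mouse 2 (0.69), CNOT3KO mouse 1 (0.89) or CNOT3KO mouse 3 (0.98). The 9 rises became 4 without CNOT3KO mouse 1 or CNOT3KO mouse 3 and 5 without WT mouse 2, without WT mouse 3 or with median centring. The 0 falls became 2 without WT mouse 3, without CNOT3KO mouse 3 or with probe sets averaged, and 5 with array weights.

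**Figure D4:**
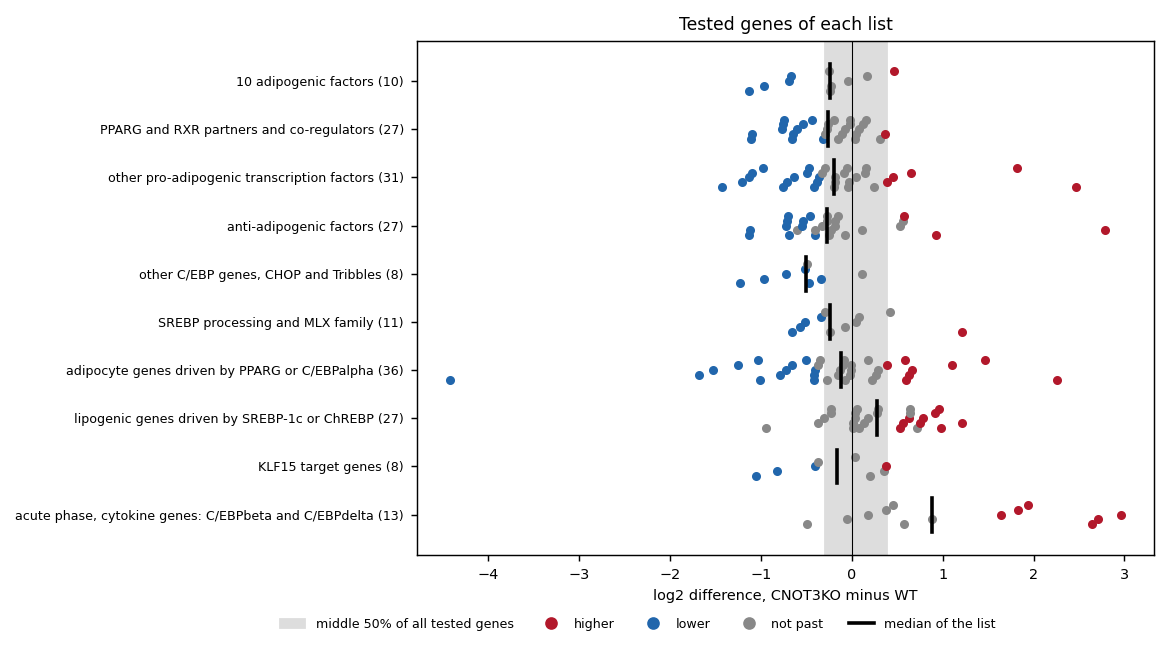
Log2 difference (CNOT3KO minus WT, horizontal axis) of each tested gene of the 10 factors and of 9 lists of their partners, rivals and targets, with 1 point a gene, colour for the call, a black bar for the list's median and a grey band for the middle of all tested genes (-0.30 to 0.39). Medians run from -0.51 for the list of other C/EBP genes, CHOP and Tribbles, which also holds Atf4, Atf5 and Cop1, to 0.88 for the acute phase and cytokine genes.

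Other factors that promote adipogenesis split. Of 31 tested, 13 fell and 5 rose, with a median log2 difference of -0.20. These calls are 58.1% of the list, against 40.1% of all tested genes. Egr2, an early inducer of Cebpb, read 78.8, 53.6 and 132 in WT and 692, 573 and 458 in CNOT3KO, a log2 difference of 2.47 (SE 0.25, adjusted p = 0.000103). All CNOT3KO mice were far above the WT mice. Zbtb16 fell by 1.43 (adjusted p = 5.4e-05), and Foxo1, the insulin-responsive forkhead factor, fell by 1.21 (adjusted p = 4.8e-05). Beside Egr2 and Arntl, the rises were E2f1 (0.65), Fosl2 (0.45) and Nr1h3, the liver X receptor alpha (0.39). E2f1, Fosl2 and Nr1h3 each lost their call without WT mouse 2 or CNOT3KO mouse 1, and E2f1 was -0.03 on its other probe set. The 5 rises became 2 without WT mouse 2 or CNOT3KO mouse 1 and 3 without CNOT3KO mouse 3 or with median centring.

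Of 27 tested factors that oppose adipogenesis, 10 fell and 3 rose, with a median log2 difference of -0.27. These calls are 48.1% of the list, against 40.1% of all tested genes. Klf2, which represses Pparg and is rich in endothelium, fell by 1.13 (adjusted p = 0.00114), and Irf4, an interferon regulatory factor, by 1.12 (adjusted p = 0.00467). Ccn5, a secreted matrix protein, rose 6.90-fold. Id2 rose by 0.93 (adjusted p = 0.00525), but by 0.12 without passing when probe sets that may cross-hybridise were avoided, and the other rise, Irf3 at 0.57, turned to -0.65 (adjusted p = 0.00725) in that setting. Without WT mouse 2 the falls numbered 6. Over the 9 lists, 90 of the 180 tested genes were called, against 40.1% of all tested genes.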

How the data were processed

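The table the authors deposited gives linear intensities, computed with MAS5 (as the submitters' processing notes state) from 500 ng of total RNA per mouse, per the labels' protocols. The MAS5 version, settings and scaling target were not given in the sources used. Trimmed array means differed by at most 0.0701%, so the arrays were scaled before deposit. Of 45037 probe sets, 34945 had 1 gene name, 932 several and 9160 none here.

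The brightest probe set on average stood for each of 18193 genes, and 5424 below the 40th percentile (51.6) were not tested. The test was limma 3.58.1 in R 4.3.3 (lmFit, eBayes with trend) after an offset of 22.5 (the 25th percentile) and log2, with Benjamini-Hochberg adjusted p under 0.05 over 12769 genes or 22861 probe sets. The fit was tested on simulated data. Groups and mouse numbers came from sample titles. The 10 factors, the 9 gene lists (210 genes, 194 with a probe set, 180 tested) and the 8 marker lists were chosen with earlier results of these data known. Genes were named by rule: all 10 factors, Cnot3, up to 4 of each list with the largest change among those past the threshold with groups apart, and the brightest markers. Rxrb, Rxrg, Slc2a4, Srebf2, Mlx, Ebf2, Ebf3, Arg1, Trib1, Trib3, Atf4 and Cop1 were singled out after their values were seen. So were T, NK and B cell markers and those named to fill out a count of 5 or fewer. Promoters are RefSeq's. Python 3.11.15 with pandas 2.3.3, numpy 2.4.6 and matplotlib 3.10.9 was used for joining and plotting.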

Additional observations from a re-analysis of the deposited data

How the results depend on the processing

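With 4 residual degrees of freedom per gene and a median SE of 0.15, small changes could not be resolved, and dim probe sets are noisy after MAS5. Each factor was refitted under 21 alternatives: offset, filter, scaling, choice of probe set, variance model, array weights, mouse number, threshold and each mouse left out. Rxra, Klf15, Ebf1 and Zfp423 remained called lower in all 21, with ranges of -1.07 to -0.43, -1.38 to -0.99, -1.03 to -0.63 and -0.80 to -0.57. Cebpb kept its call in 11, between 0.33 and 0.61, so the count of factors higher was 0 with no filter, median centring, ribosomal protein centring, eBayes without trend, an adjusted p of 0.01 or a 1.5-fold minimum, and 0 to 1 with 1 mouse left out. The count lower was 4 to 5 with 1 mouse left out and 6 with array weights. At an adjusted p of 0.01, 3144 genes were called (1895 higher, 1249 lower) and 52 of the listed genes. With a 1.5-fold minimum 3236 were called (1919 higher, 1317 lower) and 60 of the listed. With 1 mouse left out the counts were 3820 to 4636 (2199 to 2676 higher, 1556 to 1978 lower) and 66 to 86. The median of all genes lay between -0.07 and 0.05 under every scaling.

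Signs turned for Cebpd without WT mouse 2 (0.04) or WT mouse 3 (0.03), with a range of -0.18 to 0.04 over mice left out, Srebf1 with array weights (-0.08), Fabp4 with quantile normalization (0.03) and Adipoq with quantile normalization (0.04) or without WT mouse 3 (0.07, with a range of -0.27 to 0.07 over mice left out). With another choice of probe set they turned for Prdm16 (0.01), Gpt (-0.09 averaged, -0.57 with cross-hybridising sets avoided or singly), Cdk5 (-0.09 averaged, -0.01 singly), E2f1 (-0.03), Irf3 (-0.65), Mbtps1 (0.18 averaged, 0.28 and 0.61 singly) and Acvr1c (0.08 singly). The cause of these changes was not tested.

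With the mouse number as a replicate block 5092 genes were called, 4837 of them shared with the 5115, and the factors' 1 rise and 4 falls did not change. Of the lipogenic genes 2 were then called lower. Deviations of same-numbered mice correlated at 0.07, 0.11 and 0.04, each mouse best with its own number, which is a hint from the data only.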
